A study of Bos taurus with 6 samples.

Results

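The muscle miRNAs, often called myomiRs, were examined in intramuscular fat (IMF) of Chinese Qinchuan cattle. They were taken by name from the miRNA counts as miR-1, miR-133a, miR-133b, miR-206, miR-208a, miR-208b and miR-499, and 7 of the 8800 sequences in the table, all among its 793 known bovine miRNAs, bore such a name. Below, the word myomiR means these 7 alone, and other miRNAs made in muscle were not sought. The fat was dissected out of the sternomandibularis, a neck muscle, of males aged 24 months that had been weaned at 3 months. Steers had been castrated surgically at 6 months (label castrated, CM), bulls had been left intact (label intact, IM), and both groups received the same feed. Small RNA was sequenced in 2 libraries of steers and 2 of bulls, and mRNA in 1 library per group. Small RNA libraries pooled RNA of 3 animals and mRNA libraries that of 6, whereas the sample labels give 1 and 3. All animals had the same sire, and the pools leave no value for a single animal. The comparison asks how these miRNAs in IMF differ between castrated and intact males.

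The myomiRs are made mainly in skeletal and cardiac muscle fibres, where they act in differentiation, in the repression of non-muscle genes and in the choice of fibre type. The genes of miR-1 and miR-133a lie in shared transcription units, as do those of miR-206 and miR-133b, whereas miR-208a, miR-208b and miR-499 are carried in introns of myosin heavy chain genes. In fat dissected from muscle, their level is also known to depend on how many muscle fibres come along with the fat. In bulk RNA, fewer cells of a type and less RNA per cell cannot be told apart.

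The mature sequences below are shown because the families rest on their seeds, the bases 2 to 8 that pair with targets, which are in capitals. They were read, in DNA letters, from the study's supplementary list of 766 known bovine miRNAs.
miR-1: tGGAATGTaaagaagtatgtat
miR-206: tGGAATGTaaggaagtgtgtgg
miR-133a: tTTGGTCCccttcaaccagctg
miR-133b: tTTGGTCCccttcaaccagcta
miR-208a: aTAAGACGagcaaaaagcttgt
miR-208b: aTAAGACGaacaaaaggtttgt
miR-499: tTAAGACTtgcagtgatgttt

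The 7 sequences held 4 seeds, and 0 other miRNAs of that list shared any of them. Counted from 1 at the 5′ end, miR-133a and miR-133b differed at 1 position, G22A from miR-133a to miR-133b, so a read that ended before its last base could not be assigned to either. Between miR-1 and miR-206 there were 4 differences (A11G, A17G, A21G and T22G), and between miR-208a and miR-208b there were 3 (G10A, A16G and C18T). The seeds of miR-208 and miR-499 differed in their last base alone (G8T). In the bovine gene table of RefSeq, which was used for neighbouring genes and not for positions, MIR208A lies within MYH6, MIR208B within MYH7 and MIR499 within MYH7B. Each of miR-1 and miR-133a has 2 precursors in the supplementary list, and the others have 1.

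The miRNA counts summed to between 6556511 and 10452582 per library. Factors from the trimmed mean of M-values (TMM) were 0.746 and 0.968 for the steer libraries and 0.972 and 1.42 for the bull libraries. Libraries thus differed in composition within each group, and both steer factors lay below both bull factors. Some rows of the table had nearly the same counts in every library, such as bta-miR-22-3p (225656 in the first steer library) and bta-miR-3600 (224298), so 1 read may have been counted in several rows, and totals and shares below are of counts, not of reads. No other row came within 5% of any of the 6 tested myomiRs in every library. Levels below are TMM-normalized CPM, counts scaled to the effective total of the library. Of the 7 myomiRs, 6 were compared with edgeR's quasi-likelihood test on all 1073 sequences that passed a filter on low counts, and miR-208a did not pass it. Each of the 6 had at least 157 counts in every library, so none passed through 1 group alone. Calls required an adjusted p below 0.05 together with a log2 fold change beyond 1 in either direction.

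MyomiRs were lower on average in IMF of steers than of bulls, and 2 of the 6 tested, miR-499 and miR-1, were called downregulated. For comparison, 7.08% of all sequences tested and 7.58% of the known bovine miRNAs tested were called down. None of these 6 was called upregulated, as against 7.08% of all sequences tested. Of the 6, 4 had an unadjusted p under 0.05 and were lower in steers, as were 13.6% of all sequences tested. The log2 fold change was negative for all 6, and for 53.2% of all sequences tested. Their median was -1.02, beside -0.07 for all sequences tested and -0.15 for the known bovine miRNAs tested. In 5 of the 6 both steer libraries lay below both bull libraries, an arrangement found in 31.5% of all sequences tested. The 6 are not independent of each other, since miR-1 and miR-133a share transcription units, as do miR-206 and miR-133b. The calls rested on few libraries, since 0 myomiRs were called without the first or without the second steer library, 1 (miR-499) without the first bull library and 2 without the second. Without the first or the second steer library the log2 fold change was -1.71 or -1.73 for miR-499 and -1.43 or -1.33 for miR-1, and calls over all sequences were lost as well, with 1.12% or 0.507% called down. Scaling by total counts instead of TMM moved the median of all sequences to -0.56 and that of the myomiRs to -1.46, a gap of -0.90 that compares with -0.95 under TMM, and called 0 of them and 0 of all sequences down.

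MiR-499, which acts with the slow fibre programme, was counted 157 and 173 times in the steer libraries and 574 and 570 times in the bull libraries. Its level was 20.1 and 20.2 CPM in steers and 75.9 and 61.1 CPM in bulls. The steer values lay well under both bull values. They were nearer to each other than counting error on 157 and 173 counts would place them, so their closeness does not measure the spread between pools. It fell by 1.76 on the log2 scale (SE 0.47, 95% interval -2.69 to -0.84, adjusted p = 0.0043 from edgeR), a level 3.39-fold lower in steers and the largest difference among the myomiRs tested.

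MiR-1, which promotes differentiation of muscle cells, was found 158 and 160 times in the steer libraries against 432 and 441 times in the bull libraries. Expressed as CPM, these were 20.3 and 18.7 in steers and 57.1 and 47.3 in bulls. Again the groups did not overlap, and the steer libraries differed by less than the bull libraries. The fall was 1.42 on the log2 scale (SE 0.48, 95% interval -2.36 to -0.49, adjusted p = 0.028 from edgeR), or 2.68-fold.

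MiR-133a, which acts on proliferation and splicing in muscle, was by far the most abundant of the 7, with counts of 15741 and 26774 in the steer libraries and of 40409 and 46507 in the bull libraries. It ranked 34 among the 793 known bovine miRNAs by mean level. The 2020 and 3126 CPM in steers lay below the 5345 and 4986 CPM in bulls, but the steer libraries differed 1.55-fold from each other. With a log2 fold change of -1.01 (SE 0.47, 95% interval -1.94 to -0.07) and an adjusted p of 0.15 from edgeR, it was not called.

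MiR-208b, carried by the slow myosin gene MYH7, was counted 713 and 1021 times in steer libraries and 1776 and 1843 in bull libraries. The levels were 91.5 and 119 CPM in steers and 235 and 198 CPM in bulls, again without overlap. Its log2 fold change of -1.04 (SE 0.48, 95% interval -1.98 to -0.09) resembled that of miR-133a, and with an adjusted p of 0.14 from edgeR it was not called either.

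MiR-133b shares its seed with miR-133a and was counted 242 and 327 times in steers against 477 and 491 times in bulls. At 31.1 and 38.2 CPM in steers and 63.1 and 52.6 CPM in bulls, its groups did not overlap. The log2 fold change was -0.74 (SE 0.46, 95% interval -1.64 to 0.16, adjusted p = 0.28 from edgeR).

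MiR-206, a miRNA of regenerating and slow skeletal muscle that is scarce in heart, was the one tested myomiR whose groups overlapped. It was found 193 and 462 times in steers against 495 and 457 times in bulls. The second steer library, at 53.9 CPM, lay between the bull libraries at 65.5 and 49.0 CPM, while the first steer library was at 24.8 CPM. This 2.18-fold gap was the widest between libraries of 1 group among the 6 tested. The log2 fold change was -0.54 (SE 0.46, 95% interval -1.44 to 0.36, adjusted p = 0.45 from edgeR), and it was -0.04 without the first steer library and -1.17 without the second.

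MiR-208a, the counterpart of miR-208b in the cardiac myosin gene MYH6, was at the limit of detection. It had 0 counts in both steer libraries and 4 and 2 in the bull libraries. A count of 0 over both steer libraries allows a level of up to 0.183 CPM (3 counts), beside 0.355 CPM over the bull libraries, which itself rests on 6 counts, so no fold is given. Fitted without the filter, among 8303 sequences, miR-208a had an adjusted p of 0.69 from edgeR, and a difference was not detectable at this depth. In bulls miR-208b had 603 times as many counts as miR-208a, a ratio that rests on the same 6 counts.

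**Figure D1:**
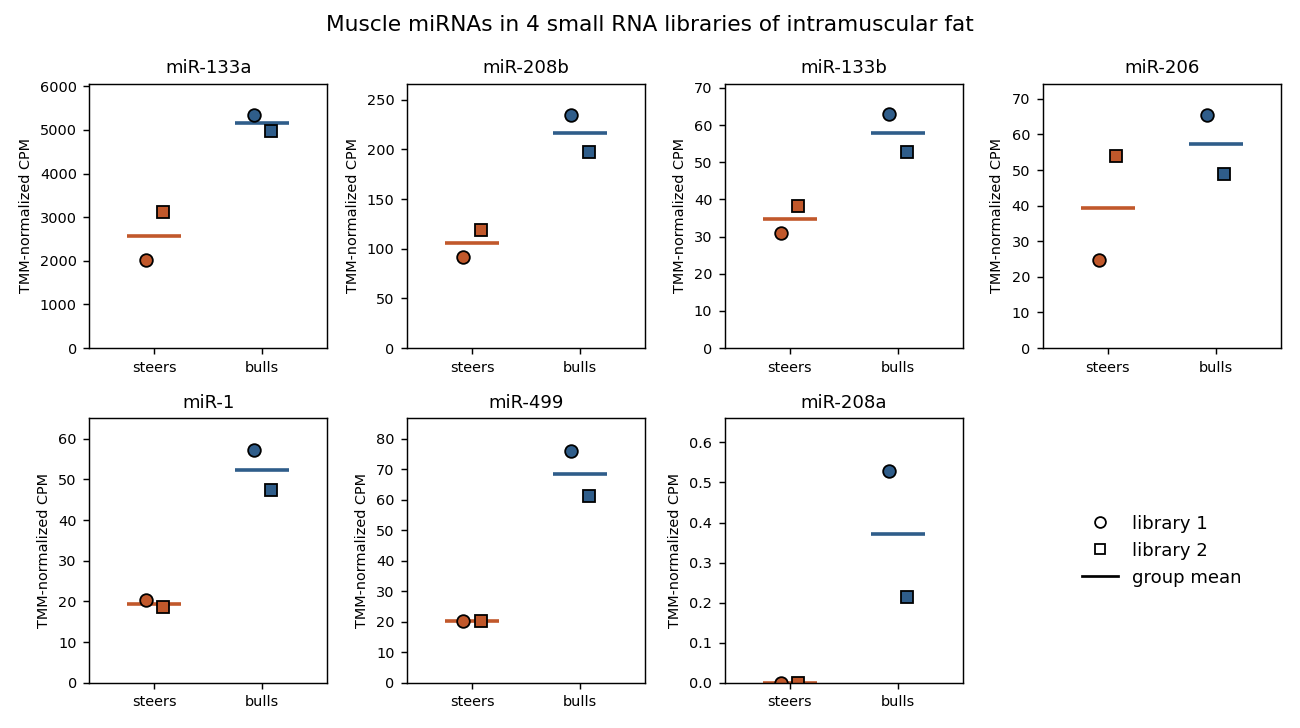
Level of each muscle miRNA in TMM-normalized CPM (vertical axis, from 0) in the libraries of steers and bulls, with circles for library 1, squares for library 2 and lines for group means. Both steer libraries lie below both bull libraries for every miRNA shown except miR-206, where the second steer library, at 53.9 CPM, exceeds the second bull library at 49.0 CPM.

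**Figure D2:**
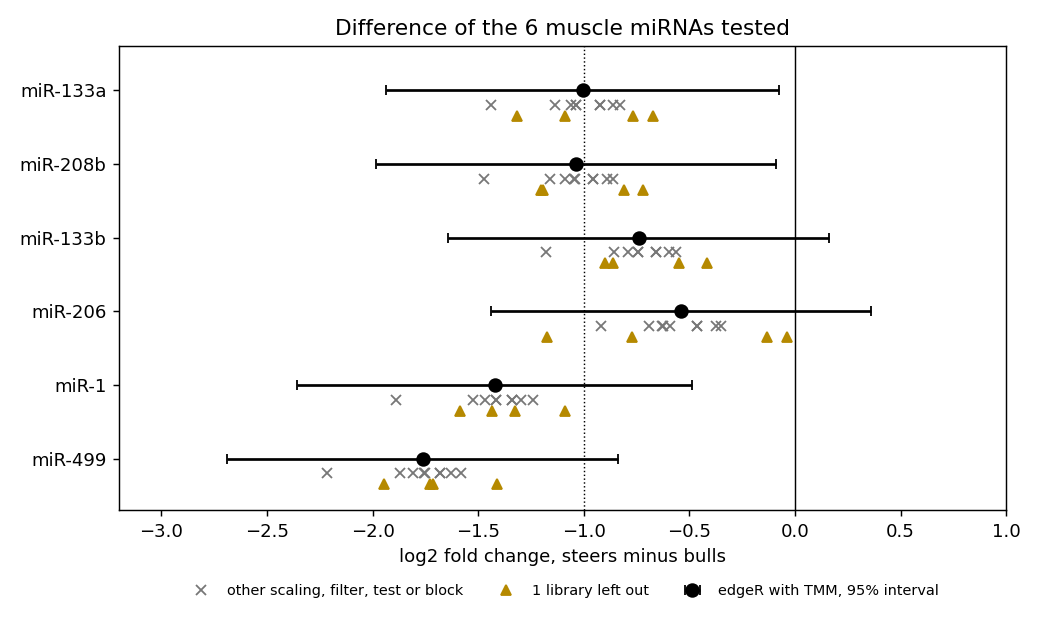
Log2 fold change of the 6 muscle miRNAs tested, steers minus bulls, from edgeR with TMM factors (black points with 95% intervals), with crosses for the other scalings, filters, tests and the replicate block and triangles for fits without 1 library. Every value lies below 0, from -2.22 for miR-499 with total counts to -0.04 for miR-206 without the first steer library, and the dotted line marks the threshold of -1.

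By level the order in bulls was miR-133a, miR-208b, miR-499, miR-133b, miR-206, miR-1 and miR-208a, and in steers miR-499 lay below miR-206 and miR-133b. In bulls the levels of miR-499, miR-133b, miR-206 and miR-1 were 68.5 ± 10.5, 57.9 ± 7.4, 57.2 ± 11.7 and 52.2 ± 7.0 CPM (SD, n = 2), so neighbours among these 4 did not differ beyond their spread. In steers miR-206 and miR-133b, at 39.4 ± 20.6 and 34.6 ± 5.0 CPM (SD, n = 2), did not either, nor did miR-499 and miR-1 at 20.2 ± 0.039 and 19.5 ± 1.1 CPM (SD, n = 2). An SD of 2 libraries is itself poorly known, and that of miR-499 in steers is below what counting error alone would give. Levels of different miRNAs also carry the unequal efficiency with which adaptors are joined to different sequences.

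The 7 myomiRs together took 0.165% and 0.326% of the counts in the steer libraries and 0.567% and 0.767% in the bull libraries. Both steer shares were below both bull shares, and the steer shares differed more from each other than the bull shares did on a log scale. The mean difference of the shares was -1.51 on the log2 scale, and it was -1.14 when miR-143 and miR-10b, which alone took 45.8% of the counts in the first steer library and 19.3% in the second bull library, were left out of the total. MiR-133a made up between 91.5% and 92.6% of the myomiR counts in every library. Without it the difference of the shares was -1.52. With 2 libraries against 2, an exact permutation test of a single value cannot go below p = 0.333 (two-sided), so no test of the shares is given.

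Ratios between myomiRs of 1 library do not depend on the scaling. For miR-133a and miR-1, which share transcription units, miR-133a had 99.6 and 167 times the counts of miR-1 in steers and 93.5 and 105 times in bulls, with overlap between the groups. The ratio of miR-206 to miR-133b was 0.80 and 1.41 in steers and 1.04 and 0.93 in bulls, so these neighbours had similar counts everywhere. MiR-208b had 4.54 and 5.90 times the counts of miR-499 in steers and 3.09 and 3.23 times in bulls. Both bull ratios lay below both steer ratios, a mean difference of 0.71 on the log2 scale between these miRNAs from different myosin genes. For the miRNAs that share the seed GGAATGT, miR-206 had 1.22 and 2.89 times the counts of miR-1 in steers and 1.15 and 1.04 times in bulls. The second steer library stood apart there, while the first lay close to the bull libraries. MiR-133a had 65.0 and 81.9 times the counts of miR-133b in steers and 84.7 and 94.7 times in bulls. Here too the groups did not overlap, nor did they for miR-206 and miR-1. With 2 libraries against 2, no test of these separations is given, as for the shares above.

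**Figure D3:**
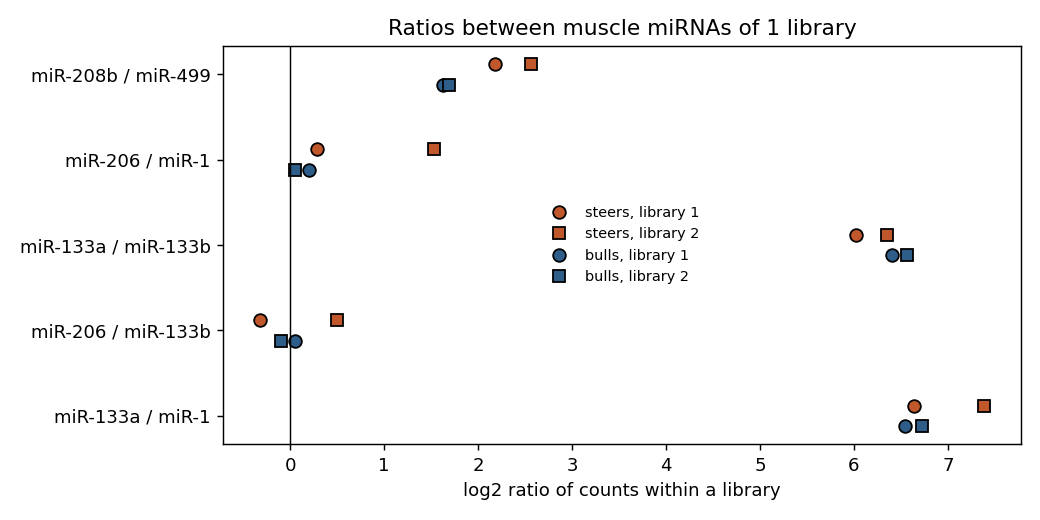
Log2 ratio of the counts of 2 muscle miRNAs within a library (horizontal axis), for steers in orange and bulls in blue, with circles for library 1 and squares for library 2. MiR-208b exceeds miR-499 more in both steer libraries (2.18 and 2.56) than in the bull libraries (1.63 and 1.69). The ratios of miR-133a to miR-133b and of miR-206 to miR-1 do not overlap between the groups either. Those of miR-133a to miR-1 and of miR-206 to miR-133b overlap.

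Few counts of these families lay in other rows. Human, mouse and rat names of the same families made up 13 rows with 17 counts in all and at most 2 in any library. A bovine miR-133c, whose precursor overlaps that of miR-133a in RefSeq and whose seed is different, was counted 29 and 57 times in steers against 79 and 88 times in bulls and was not called (log2 fold change -0.93, adjusted p = 0.23 from edgeR).

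The mRNA libraries, made from pools of the same groups, gave values for 2 of the 3 genes in whose introns the myosin miRNAs lie. With 1 library per group there is no test, and the ratios below carry 95% Clopper-Pearson intervals that cover counting error alone. MYH7, the slow and beta-cardiac myosin, was counted 675 times in the steer pool and 2906 times in the bull pool, a log2 ratio of -2.23 (-2.35 to -2.11). MYH6, the alpha-cardiac myosin, had 641 and 3506 counts and a log2 ratio of -2.57 (-2.70 to -2.45). The coding sequences of MYH6 and MYH7 are nearly alike, so the division of reads between them is uncertain. Both host genes had a lower count in the steer pool, as did miR-208b in the small RNA libraries, whereas the MYH6 counts stood beside the 6 counts of miR-208a in bulls. No value was obtained for MYH7B, the host gene of miR-499, so the myomiR with the largest difference could not be set beside its host. The rows of the mRNA table for the myomiR precursors themselves, 9 in all, had at most 2 counts, and 1 of them had any.

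Slow and fast fibre genes differed between these pools in different ways. Of 10 slow fibre genes, 8 were in the table and 7 of these had a log2 ratio under -1, compared with 11.2% of all 14043 genes with at least 10 counts in either pool. Their median was -2.12, beside 0.01 for all genes compared. Total counts in place of the median-of-ratios factors lower every log2 ratio alike and put the median of all genes at -0.23 and that of the slow fibre genes at -2.36. MYL2, the slow ventricular light chain, had 1060 and 4711 counts (-2.27, interval -2.37 to -2.18). ATP2A2, the slow calcium pump, which other cells also express, was the one not past the threshold, with 1540 and 1904 counts (-0.43, interval -0.53 to -0.33). Of 10 fast fibre genes, 9 were in the table, of which 0 were under -1 and 1, MYH1, was over 1, as were 6.34% of all genes compared. The fast fibre median was 0.15, and with total counts it was -0.09 and MYH1, at 0.91, was no longer over 1. MYH2, the myosin of fast oxidative fibres, had 5396 and 4929 counts and a log2 ratio of 0.01 (-0.05 to 0.06), or -0.23 with total counts. The fast calcium pump ATP2A1 was at -0.29 (-0.38 to -0.21) and the fast troponin TNNC2 at 1.00 (0.87 to 1.13).

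The median of 15 genes of striated muscle at large lay between those of these lists, and this list was not split by fibre type. All 15 were in the table with a log2 ratio below 0, as were 6867 of the 14043 genes compared. Of the 15, 4 (ACTN2, MYBPC1, DES and TCAP) were under -1, beside 11.2% of all genes compared. The median was -0.67, or -0.91 with total counts. The skeletal actin ACTA1 had 13852 and 19910 counts (-0.65, interval -0.68 to -0.61), creatine kinase CKM 4191 and 6133 (-0.67, interval -0.73 to -0.61) and desmin DES 3721 and 8207 (-1.26, interval -1.32 to -1.21). These 15 genes took 0.250% of the counts in the steer pool and 0.515% in the bull pool, so muscle transcripts were present in both. How far this difference in muscle transcripts accounts for that in the myomiRs was not tested. Adipocyte markers were abundant in both pools. CIDEC, a lipid droplet protein, had 9931 and 7501 counts, FABP4 3951 and 7574, and the adipokine gene ADIPOQ 4513 and 6651. Of 6 adipocyte genes 1, FABP4, was under -1, beside 11.2% of all genes compared, with a median of -0.43. The adipocyte genes took 0.218% of the counts in the steer pool and 0.332% in the bull pool, so their share too was lower in steers.

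**Figure D4:**
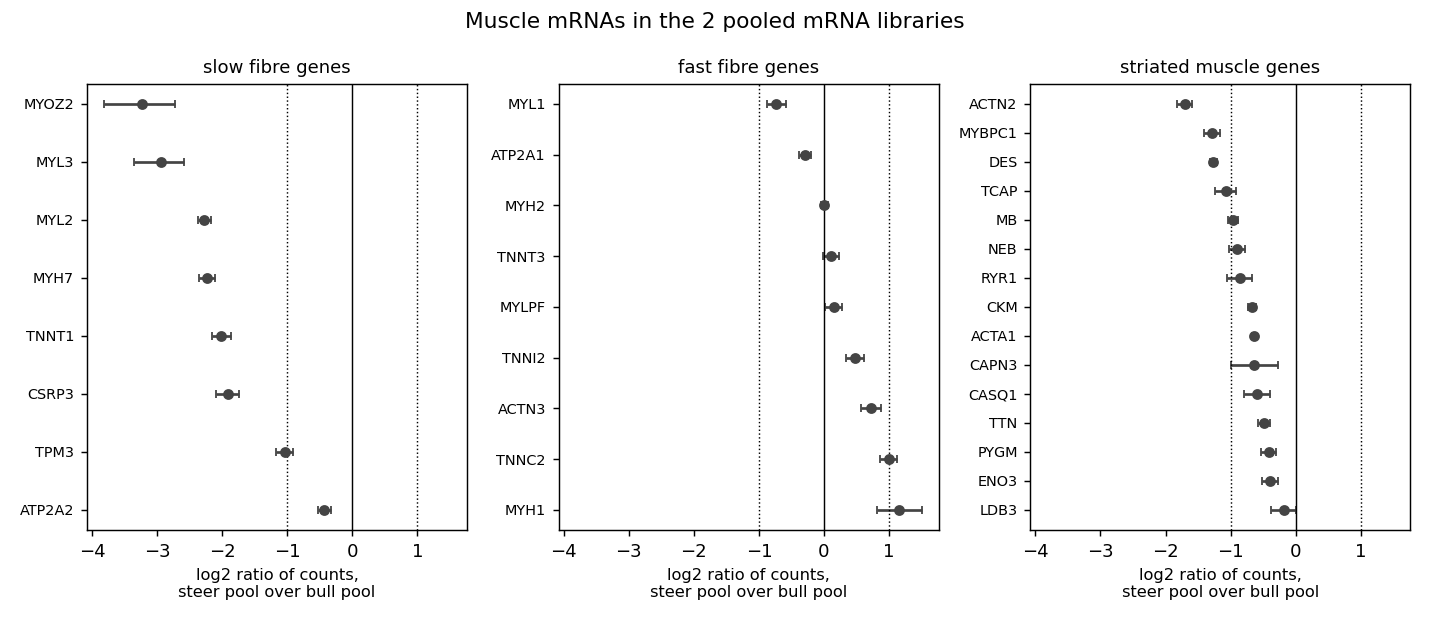
Log2 ratio of the counts in the steer pool over the bull pool for muscle genes of 3 lists, with 95% intervals for counting error alone and dotted lines at -1 and 1. Slow fibre genes run from -3.23 (MYOZ2) to -0.43 (ATP2A2), fast fibre genes from -0.73 (MYL1) to 1.15 (MYH1), and striated muscle genes from -1.71 (ACTN2) to -0.18 (LDB3).

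Factors that control muscle genes, some of which act on myomiR genes, showed no common direction. SRF, which drives transcription of miR-1 and miR-133a, had 629 and 440 counts (log2 ratio 0.39, interval 0.22 to 0.57), MEF2C 417 and 407 (-0.09, interval -0.29 to 0.11) and MYF6 164 and 186 (-0.30, interval -0.62 to 0.01). MYOD1 had 2 and 3 counts, and PAX7 and PAX3, which mark muscle stem cells and their precursors, had 0 in both pools. MYF5 had 17 counts in steers and 1 in bulls, with a counting interval of 1.29 to 9.35 on the log2 scale. Of the 8 genes 7 were in the table and 4 could be compared, of which 0 were under -1 and 1, MYF5, was over 1. The shares of all genes compared were 11.2% under -1 and 6.34% over 1.

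Of 16 genes known as targets of these miRNAs, 15 could be compared. Of these 2 were under -1, as were 11.2% of all genes compared. Their median log2 ratio was 0.01, as was that of all genes compared, and with total counts both were -0.23. Among targets of miR-1 and miR-206, HDAC4, a repressor of muscle genes, was at 0.03 (-0.32 to 0.39), the gap junction gene GJA1 at 0.54 (0.43 to 0.64), POLA1 at -0.48 (-0.76 to -0.20) and KCNJ2 at -0.59 (-1.67 to 0.42). Among those of miR-133, UCP2, a mitochondrial carrier, had 405 and 1754 counts (-2.24, interval -2.40 to -2.08) and PRDM16, a regulator of brown fat, 13 and 44 (-1.84, interval -2.90 to -0.96). SRF is also a target of miR-133, and the other miR-133 targets were RHOA at 0.11 (0.04 to 0.18), CDC42 at -0.26 (-0.39 to -0.14) and PTBP2 at 0.22 (-0.72 to 1.21). Among those of miR-208 and miR-499, SOX6, a repressor of slow fibre genes, had 22 and 20 counts (0.01, interval -0.93 to 0.97), while PURB was at 0.64 (0.27 to 1.01), SP3 at -0.33 (-0.61 to -0.05) and MED13 at -0.12 (-0.37 to 0.12).

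Markers of other cell types also moved between the small RNA libraries, and their part in the myomiR values was not tested. For comparison, 7.08% of all sequences tested were called down in steers and 7.08% were called up. Taken singly, 31.5% of all sequences tested had both steer libraries below both bull libraries. Of 7 leukocyte miRNAs 2, miR-142-5p and miR-223, were called downregulated and 0 upregulated, and their summed level was 1243 to 1510 CPM in steers and 1893 to 3833 CPM in bulls. The 3 erythroid miRNAs went in different directions. bta-miR-451 was called downregulated (log2 fold change -1.79), bta-miR-144 was at -1.94 on 2 to 15 counts and was not called, and bta-miR-486 was called upregulated (1.47), with a list median of -1.79. Their summed level of 3401 to 7360 CPM in steers and 1757 to 2248 CPM in bulls was almost wholly bta-miR-486, at 3378 to 7347 CPM in steers and 1705 to 2177 CPM in bulls. MiR-126-3p, 1 of 2 endothelial miRNAs, was called downregulated, and the sums of both overlapped between the groups (7863 to 14793 CPM in steers, 11456 to 21298 CPM in bulls). Among 5 stromal miRNAs miR-143 was called upregulated, with sums of 145309 to 345438 CPM in steers and 79919 to 164121 CPM in bulls. Epithelial miRNAs were close to absent, at 1.03 to 1.05 CPM in steers and 3.86 to 4.76 CPM in bulls over 6 of 7 in the table, and miR-141, the one tested, was called downregulated. None of the markers in the table was at 0 in all libraries.

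The known bovine miRNAs outside the family whose profile over the 4 libraries was nearest to the mean of the 6 tested myomiRs were, in order, miR-763, let-7a-3p, miR-758, miR-340 and miR-369-5p. The measure was the root mean square distance of log2 CPM after centring each miRNA on its own mean, which ran from 0.07 for miR-763 to 0.14 for miR-369-5p among 390 such miRNAs. The same distance ran from 0.03 for miR-208b to 0.35 for miR-206 among the myomiRs, and all 5 of the miRNAs named lay nearer to the mean profile than 4 of the 6 myomiRs. Their log2 fold changes ran from -1.26 to -0.90, and 0 of the 5 were called. MiR-763, miR-758 and miR-340 had only 14 to 42, 11 to 33 and 28 to 74 counts per library. Their distances and the order of the 5 thus carry counting error. Over 4 libraries such likeness is a description alone.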

How the data were processed

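The authors removed adaptors, low-quality reads and reads under 15 bases, aligned the small RNA reads with BWA to miRBase 21 and a bovine genome, used miRDeep to predict others, and compared what remained with human, mouse and rat miRNAs. The labels name a human genome build, GRCh37.p13. The treatment of reads with several matches is not given in the sources used here. Reads may have been counted in several rows, since rows such as those of miR-22-3p and miR-3600 are nearly equal, which bears on totals and shares and on ratios of near-identical miRNAs. The mRNA reads, from an Ion Proton sequencer, were aligned with MapSplice, and neither the tool that counted them nor whether it used strand is given in the sources used here. The deposited values of both kinds are raw counts.

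All sequences that passed filterByExpr were fitted in edgeR 4.0.16 under R 4.3.3 (TMM, glmQLFit, glmQLFTest on group) with Benjamini-Hochberg adjustment over all of them. SEs were taken as the size of the fold change (log2) over the root of the F statistic. The libraries are pools and the labels do not name their animals, so p-values measure the spread between these libraries, which may be technical. Replicate libraries differed far beyond sampling noise. For mRNA, median-of-ratios factors were used (1.04 and 0.959) and a prior of 0.5 counts, with intervals from scipy 1.17.1. Both scripts were tested on simulated data. Intervals and floors cover counting error only.

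The muscle miRNAs and all lists were chosen with earlier results of these data known. The lists were written from general knowledge. Named were the 7 myomiRs, the 5 nearest profiles, host genes, targets, and of each other list the 3 genes with most counts and those at 0. Others named, such as MYH1, MYF5, ACTN2, MYOZ2 and LDB3, were chosen after their values were seen. Alternatives were other scalings, filters, DESeq2 1.42.0, limma-voom (limma 3.58.1), known bovine miRNAs alone, the replicate number as a block and each library left out. The neighbouring genes are those of the RefSeq assembly ARS-UCD2.0. The value of 1 target gene is not reported here.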

Additional observations from a re-analysis of the deposited data

How the results depend on the processing

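All 78 alternative log2 fold changes of the 6 tested myomiRs, 13 for each, were below 0, and 67 of them left the call as it was. Most of these 67 belonged to myomiRs that were not called in the main fit and stayed so. Of the 2 called there, miR-499 was called in 10 of its 13 alternatives and miR-1 in 7 of its 13. Upper-quartile factors gave miR-1 a log2 fold change of -1.24, past the adjusted p no longer, and left 1 myomiR called down. Total counts gave -1.89 for miR-1 and -2.22 for miR-499, neither called, and 0 calls, with 5 of the 6 at an unadjusted p under 0.05. Without a filter 8303 sequences were tested, miR-1 was at -1.52 and not called, and 1 myomiR was called. With the replicate number as a block (replicate block), miR-133a and miR-208b, both at -1.04, were called too, which made 4. The labels do not say that a number marks shared animals or days, and the deviations of same-numbered libraries had a correlation of 0.30 over sequences. The block raised the calls over all sequences that are down from 76 to 119. Over all sequences, 0 were called down and 1 up with total counts, 36 and 34 without a filter, 52 and 101 with upper-quartile factors, 50 and 36 with at least 10 counts in every library, and 6 to 45 and 20 to 110 with 1 library left out, beside 76 and 76. With 1 library left out, in which a lone library is assumed to vary like the other group, miR-1 ran from -1.59 to -1.09, miR-499 from -1.95 to -1.41 and the calls from 0 to 2. The causes were not tested. MiR-208a passed no filter and could be fitted only without one, where it was not called. Among 32 muscle mRNAs, 11 were under -1, beside 11.2% of all genes compared. These were 7 slow fibre, 0 fast fibre and 4 striated muscle genes. With total counts 14 of the 32 were under -1. That scaling moved the median of all genes from 0.01 to -0.23, and the share of all genes under -1 was not taken there. Depth limits miR-208a above all, and 2 libraries per group limit every p.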
